A study of Mus musculus with 90 samples.

Results

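The 10 genes described here act in leukocyte recruitment and in the feedback on cytokine signalling: the neutrophil chemokines Cxcl1 and Cxcl2, the cytokines Il1b, Il6 and Tnf, the adhesion molecules Icam1, Vcam1 and Selp, and the feedback inhibitors Socs3 and Nfkbia. They were taken by gene symbol, with earlier results of these data known. Each had 1 probe on the array, so the set was 10 of 25697 probes, and 10 of the 16593 genes that the array named. Balb/c mice had received astatine-211, a radionuclide that emits alpha particles, by intravenous injection, and 24 h later RNA of the liver, the lung, the spleen and both zones of the kidney, cortex and medulla, was measured. In each tissue 0.64 kBq of injected activity was set against 0.064 kBq, and 1.8, 14 and 42 kBq were each set against 0 kBq, with 3 arrays per group and 90 arrays in all. All groups shared the strain and the time, and what the 0 kBq mice received is not given in the sources used here. Nothing in the sources says that the arrays of a group came from separate mice, so what the p-values weigh is the variation from array to array, which may be technical.

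In textbook terms, cells that sense injury or microbial products activate the transcription factor NF-kB, which induces chemokines such as Cxcl1, the cytokines Il1b, Tnf and Il6, and the adhesion molecules of the vessel wall. Il6 acts through STAT3, which induces Socs3 and, in the liver, acute phase proteins. Nfkbia codes for the inhibitor that holds NF-kB in the cytoplasm and is itself an NF-kB target, and Socs3 blocks the receptor kinases upstream of STAT3.

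The arrays fell into a set of 60 (0, 1.8, 14 and 42 kBq, called set 1) and a set of 30 (0.064 and 0.64 kBq, called set 2), because their deposited processed values lay on 2 different grids of steps. Set and activity cannot be told apart across these groups, and each comparison below lay within a set. On each array 11229 to 14456 probes were detected. The median SD between the arrays of a group was 0.146 to 0.16 log2 units in set 1 and 0.177 to 0.226 in set 2, by tissue. The tissue labels were checked against marker genes, as the log2 of the summed intensity of a list. The alveolar epithelium list was at 16.43 to 16.65 in lung and at most 8.71 elsewhere, the hepatocyte list at 16.47 to 17.14 in liver and at most 13.6 elsewhere, and the B cell list at 13.53 to 14.38 in spleen and at most 11.42 elsewhere. The proximal tubule list was at 15.77 to 16.01 in kidney cortex, at 15.23 to 15.62 in kidney medulla and at most 7.65 in the other tissues. The loop and collecting duct list was at 15.3 to 15.75 in medulla and at 14.49 to 15.28 in cortex, so the zones lay close together in both kidney lists.

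Levels are log2 intensities after background correction and quantile normalisation within a tissue. A gene was tested in a tissue when its probe was detected on at least 3 of the 18 arrays. It was called when limma's moderated test gave a Benjamini-Hochberg adjusted p under 0.05 over all probes tested in that tissue. By this rule 8 of the 10 genes were tested in lung, spleen and kidney medulla, and 7 in liver and kidney cortex. Groups of 3 arrays that do not overlap are not rare here: by comparison, they occurred for 9.05% to 40.8% of all probes tested. In bulk tissue, fewer cells of a type and less RNA per cell cannot be told apart.

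The set changed most at 1.8 kBq, and there in kidney and liver. Of the tested genes, 5 of 8 rose in kidney medulla, 4 of 7 in kidney cortex and 3 of 7 in liver. None passed the test in lung or spleen, where 3 and 2 genes had an unadjusted p under 0.05. Of all probes tested, 13.4% rose in kidney medulla, 1.5% in kidney cortex and 1.97% in liver, and 0.374% were called in either direction in lung and 2.8% in spleen. The count in medulla thus stood against a tissue-wide change, and those in cortex and liver against a much smaller one.

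The other activities gave fewer calls. At 14 kBq 1 gene rose in liver (as did 0.709% of all probes) and 1 in spleen (1.89%), and none was called in lung (0.43% of probes, in either direction), cortex (0.119%) or medulla (0.438%). At 42 kBq 2 genes rose in liver (1.76%) and 1 fell in medulla (2.99%), and none was called in lung (0.679%), spleen (0.529%) or cortex (1.7%). Between 0.64 and 0.064 kBq 2 genes rose in liver (2.06%) and 1 fell in spleen (0.882%), and none was called in lung (0.162%), cortex (0.106%) or medulla (1.16%). Where limma called no member, 0 to 3 of them had an unadjusted p under 0.05. Over the 10 genes, tested or not, the median log2 change at 1.8 kBq was 0.49 in cortex, 0.4 in medulla, 0.36 in liver, 0.3 in lung and 0.13 in spleen, where the median over all genes lay between -0.03 and 0.05.

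**Figure D1:**
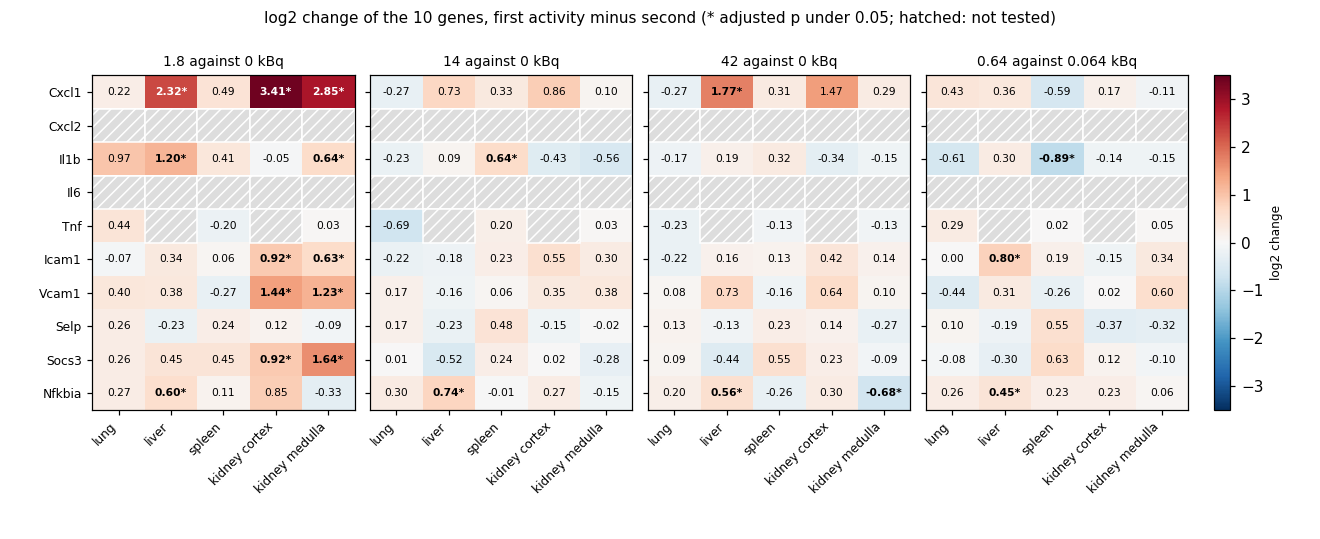
Log2 change of each of the 10 genes (rows) in each tissue (columns) for 4 comparisons, as the mean at the first activity minus the mean at the second. An asterisk marks an adjusted p under 0.05 and hatched cells were not tested; Cxcl1 at 1.8 kBq has the largest values, 3.41 in kidney cortex, 2.85 in kidney medulla and 2.32 in liver.

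The error of these tests was shared by both array sets. Cxcl1, for example, had SDs of 1.21 and 2.24 in the 2 set 2 groups of kidney cortex and of 0.08 to 0.26 in the 4 set 1 groups. When each set was fitted alone, the 17 calls against 0 kBq within set 1 all remained and were joined by others, to 37 in all, and the 3 calls within set 2 were all lost, in tissues where 0% of all probes were then called between 0.64 and 0.064 kBq. The share of all probes called at 1.8 kBq was then 33.4% in medulla, 9.02% in cortex, 14.7% in liver, 4.02% in lung and 8.87% in spleen. Calls described below as made with set 1 alone are from that fit.

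Cxcl1, the chemokine that draws neutrophils through the receptor Cxcr2, had the largest change of the set. In kidney cortex its levels were 8.65, 8.81 and 9.16 at 1.8 kBq, against 5.56, 5.45 and 5.39 at 0 kBq. All 1.8 kBq arrays lay well above all 0 kBq arrays. A set 2 array of cortex lay higher still, at 9.53 (given below). The 10.6-fold rise (log2 change 3.41, SE 0.68, adjusted p = 0.011) ranked 4 among 15063 probes. The call was lost without replicate 2 or replicate 3 of the 0 kBq group (adjusted p up to 0.0527), while the log2 change stayed between 3.26 and 3.52 over all 6 omissions of an array. It was smaller, and still called, in the deposited value table (1.75) and without background correction (1.97).

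In kidney medulla Cxcl1 was at 9.45, 9.51 and 9.54 at 1.8 kBq, against 6.85, 6.53 and 6.57 at 0 kBq. The groups did not overlap, and the rise was 7.2-fold (log2 change 2.85, SE 0.29, adjusted p = 1.76e-07), or 1.87 on the log2 scale in the deposited value table. In liver Cxcl1 was at 11.27, 11.58 and 11.44 at 1.8 kBq, against 9.09, 9.13 and 9.1 at 0 kBq. This 5-fold rise (log2 change 2.32, SE 0.3, adjusted p = 5.85e-05) again left a wide gap between the groups. In the 2 remaining tissues no gap was seen: in lung the levels were 8.19, 8.06 and 8.42 at 1.8 kBq, against 8.27, 7.85 and 7.88 at 0 kBq, and in spleen 5.74, 6.64 and 6.7, against 6.02, 5.61 and 5.99.

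Cxcl1 did not follow the activity in a steady order. In liver its level was 9.84 ± 0.07 at 14 kBq and 10.88 ± 0.15 at 42 kBq, against 9.11 ± 0.02 at 0 kBq (SD, n = 3 each). The 42 kBq group was 3.42-fold above the controls (log2 change 1.77, SE 0.3, adjusted p = 0.00108), and the 14 kBq group, with a log2 change of 0.73, was called with set 1 alone (7.94% of all probes called). In kidney medulla the level was 6.75 ± 0.26 at 14 kBq and 6.94 ± 0.06 at 42 kBq, against 6.65 ± 0.17 at 0 kBq. There the 42 kBq group lay 5.88-fold below the 1.8 kBq group (log2 change -2.56, SE 0.29, adjusted p = 3.59e-06), in a comparison in which 4.14% of all probes fell. In kidney cortex the level was 6.33 ± 0.08 at 14 kBq and 6.93 ± 0.18 at 42 kBq, against 5.47 ± 0.09 at 0 kBq. Neither passed the test in the joint error (log2 changes 0.86 and 1.47), and both were called with set 1 alone, in which 2.76% and 5.58% of all probes were called.

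**Figure D2:**
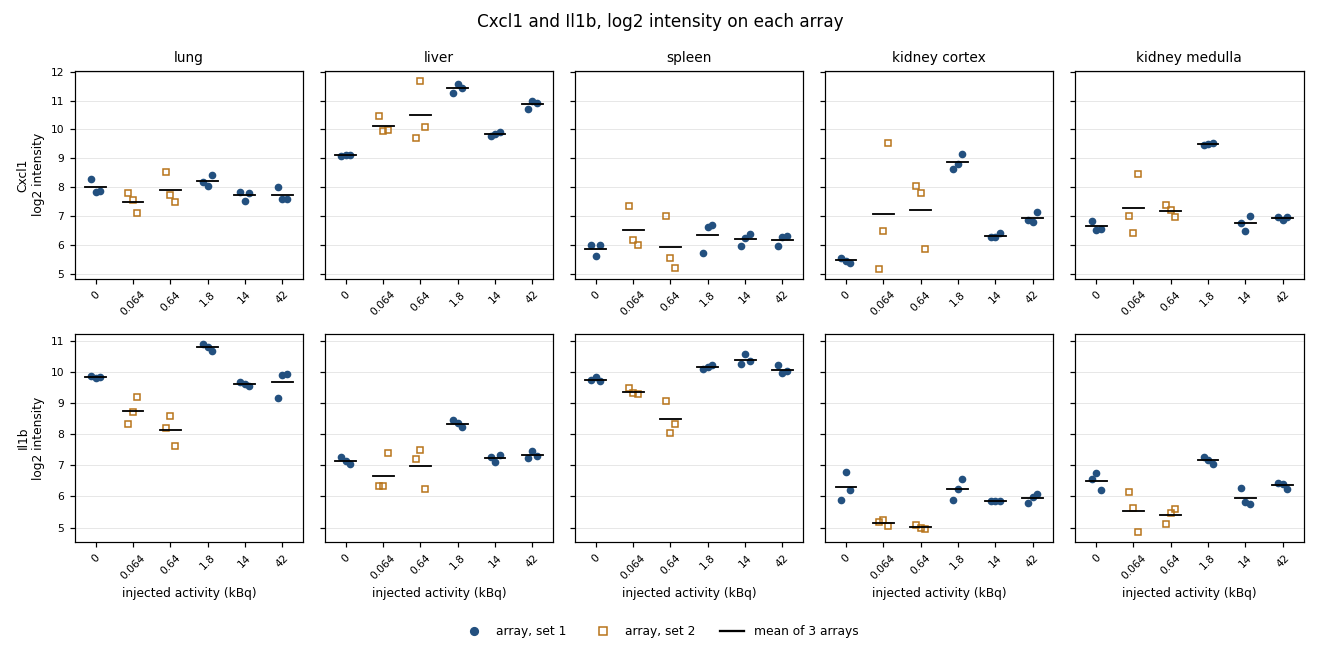
Log2 intensity of Cxcl1 and Il1b on each array, by tissue and injected activity (kBq, from low to high). Filled circles are arrays of set 1, open squares arrays of set 2, and bars the mean of 3 arrays. The 1.8 kBq circles of Cxcl1 stand above the other circles in liver, kidney cortex and kidney medulla. The squares scatter widely in kidney cortex.

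In the low-activity groups the Cxcl1 arrays were too scattered for any order. In kidney cortex they gave 8.03, 7.82 and 5.85 at 0.64 kBq, against 5.17, 6.49 and 9.53 at 0.064 kBq. The ranges of these groups overlapped almost entirely (log2 change 0.17). The array at 9.53 lay above each 1.8 kBq array of cortex (8.65, 8.81 and 9.16). In liver the low-activity arrays gave 9.7, 11.69 and 10.08 at 0.64 kBq, against 10.46, 9.93 and 9.98 at 0.064 kBq, also with overlap. The array at 11.69 lay above each 1.8 kBq array of liver (11.27, 11.58 and 11.44). High Cxcl1 levels in these tissues were thus not confined to 1.8 kBq, and their cause was not tested.

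Cxcl2, the other neutrophil chemokine of the set and a neighbour of Cxcl1 on chromosome 5, stayed at or below the background of the arrays. It was detected on 4 of 90 arrays. Of these, 2 were lung arrays at 1.8 kBq, where the levels were 5.33, 5.48 and 4.76, against 4.37, 4.43 and 5.1 at 0 kBq, with overlap. The detection limit lay between 4.98 and 5.21 on this scale, so these data say little about the gene.

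Among the cytokines only Il1b, the secreted alarm cytokine of macrophages and neutrophils, was well measured, on 84 of 90 arrays. In liver it was at 8.44, 8.36 and 8.23 at 1.8 kBq, against 7.25, 7.13 and 7.04 at 0 kBq. The groups were more than their spread apart, and the rise was 2.3-fold (log2 change 1.2, SE 0.26, adjusted p = 0.012). Its call was lost under median scaling of the arrays, and without replicate 1 at 1.8 kBq or replicate 3 at 0 kBq (adjusted p up to 0.0647), and in the deposited value table the log2 change was 0.79. In kidney medulla Il1b was at 7.25, 7.18 and 7.04 at 1.8 kBq, against 6.57, 6.74 and 6.22 at 0 kBq. This 1.56-fold rise (log2 change 0.64, SE 0.24, adjusted p = 0.0475) stood just inside the threshold and was lost in 5 of the 6 omissions of an array (adjusted p up to 0.188). Median scaling and the test without a filter ended it too, and the log2 change was 0.28 in the deposited value table and 0.35 without background correction.

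In lung the Il1b groups also stood apart. The levels were 10.9, 10.81 and 10.68 at 1.8 kBq, against 9.88, 9.8 and 9.82 at 0 kBq. The difference of 0.97 (SE 0.22) had an adjusted p of 0.0561 and was called with set 1 alone. In kidney cortex the levels were 5.88, 6.25 and 6.57 at 1.8 kBq, against 5.88, 6.78 and 6.21 at 0 kBq, with overlap. Il1b at 42 kBq lay below 1.8 kBq in lung (9.16, 9.89 and 9.94 at 42 kBq; log2 change -1.13, adjusted p = 0.00603), in liver (-1.01, adjusted p = 0.0297) and in medulla (-0.79, adjusted p = 0.0379). Of all probes 0.361% fell in lung, 1.84% in liver and 4.14% in medulla in those comparisons. The lung call was lost without replicate 1 at 42 kBq (log2 change -0.88), and the liver and medulla calls in each omission of 1 array and under median scaling. In the deposited value table the liver change was -0.67 and the medulla change -0.34, and without background correction the medulla change was -0.42.

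Spleen was the only tissue in which Il1b was called at 14 kBq. The levels there were 10.24, 10.58 and 10.34 at 14 kBq, against 9.73, 9.82 and 9.69 at 0 kBq. The 1.56-fold rise (log2 change 0.64, SE 0.17, adjusted p = 0.0465) was lost in each of the 6 omissions of an array, under median scaling and without a filter on dim probes. In the low-activity groups of spleen Il1b was at 9.07, 8.04 and 8.32 at 0.64 kBq, against 9.48, 9.31 and 9.3 at 0.064 kBq. It fell by 0.89 on the log2 scale (SE 0.17, adjusted p = 0.0207), and this call was lost without replicate 2 at 0.064 kBq and with set 2 fitted alone.

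Il6, the cytokine that drives the acute phase response of the liver, was detected on 4 of 90 arrays and its group means lay between 4.42 and 5. Tnf, the macrophage cytokine that activates NF-kB, was detected on 35 arrays. It was highest in spleen, where it stood at 6.29, 6.51 and 6.3 at 1.8 kBq, against 6.84, 6.61 and 6.27 at 0 kBq, with overlap. In lung it was at 6, 6.37 and 5.55 at 1.8 kBq, against 5.4, 6 and 5.21 at 0 kBq, also with overlap. Tnf was not called in any of its 12 tests.

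Both adhesion molecules of the immunoglobulin family rose in the kidney at 1.8 kBq. Icam1, the endothelial ligand of neutrophil integrins, was at 9.37, 9.43 and 9.2 in cortex at 1.8 kBq, against 8.41, 8.66 and 8.18 at 0 kBq. The groups did not overlap and the rise was 1.89-fold (log2 change 0.92, SE 0.14, adjusted p = 0.00162). In medulla Icam1 was at 9.55, 9.37 and 9.52 at 1.8 kBq, against 9, 8.58 and 8.97 at 0 kBq. This was 1.55-fold higher (log2 change 0.63, SE 0.14, adjusted p = 0.00145), and both Icam1 rises kept their calls under all alternatives and omissions run.

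Vcam1, the ligand of the integrin VLA-4 on lymphocytes and monocytes, also rose in both zones. In cortex it was at 9.38, 10.05 and 10.07 at 1.8 kBq, against 8.3, 8.34 and 8.54 at 0 kBq. The rise of 2.71-fold (log2 change 1.44, SE 0.23, adjusted p = 0.0018) ranked 35 among all probes of the tissue. In medulla Vcam1 was at 10.1, 10.18 and 10.28 at 1.8 kBq, against 9.09, 9.05 and 8.75 at 0 kBq. It was 2.34-fold higher there (log2 change 1.23, SE 0.19, adjusted p = 3.14e-05). Neither pair of groups overlapped, and both calls were kept under all alternatives and omissions run.

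At the higher activities Icam1 and Vcam1 in the kidney zones lay nearer to the controls. Icam1 in cortex was at 8.97 ± 0.15 at 14 kBq and 8.84 ± 0.06 at 42 kBq, against 8.42 ± 0.24 at 0 kBq (SD, n = 3 each). Neither difference was called (log2 changes 0.55 and 0.42), though the groups did not overlap and the first was called with set 1 alone. Vcam1 in cortex was at 8.75 ± 0.08 at 14 kBq and 9.04 ± 0.11 at 42 kBq, against 8.39 ± 0.13 at 0 kBq, and the second of these was called with set 1 alone. In medulla both fell at 42 kBq relative to 1.8 kBq. The log2 change was -0.49 for Icam1 (SE 0.14, adjusted p = 0.0265), lost in 5 of 6 omissions of an array and under median scaling, and -1.13 for Vcam1 (SE 0.19, adjusted p = 0.00027), kept in all 6. None of the 10 genes was called between 42 and 1.8 kBq in spleen (0.712% of all probes, with 1 member at an unadjusted p under 0.05) or in cortex (4.23%). In cortex 5 had an unadjusted p under 0.05 in that comparison, and all 5 were called with set 1 alone (11.3%): Cxcl1, Icam1, Vcam1, Socs3 and Nfkbia, each lower at 42 kBq.

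In liver 1 adhesion gene was called, Icam1, in the low-activity groups. Vcam1 in liver was at 9.05, 9.29 and 9.22 at 42 kBq, against 8.31, 8.61 and 8.45 at 0 kBq. The groups did not overlap, but the adjusted p was 0.0518 (log2 change 0.73), and the difference was called with set 1 alone, where 12.5% of all probes were called. Icam1 in liver was at 8.29, 8.9 and 7.89 at 0.64 kBq, against 7.39, 7.57 and 7.73 at 0.064 kBq. It was 1.74-fold higher (log2 change 0.8, SE 0.18, adjusted p = 0.0171), a call lost with set 2 alone, under median scaling, and without replicate 1 at 0.064 kBq or replicate 2 at 0.64 kBq (log2 changes over the 6 omissions 0.53 to 1.03).

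In lung and spleen neither molecule was called. Icam1 in lung was at 12.64, 12.83 and 12.73 at 1.8 kBq, against 12.73, 12.88 and 12.79 at 0 kBq. Vcam1 in spleen was at 12.67, 13 and 12.9 at 1.8 kBq, against 13.16, 13.05 and 13.18 at 0 kBq. The lung groups of Icam1 overlapped, and the spleen groups of Vcam1 did not. The lung change of Icam1 was -0.07 and the spleen change of Vcam1 -0.27 on the log2 scale.

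Selp codes for P-selectin, which starts the rolling of leukocytes on activated endothelium and platelets. It was detected on 67 arrays and was not called in any of its 20 comparisons. In medulla at 1.8 kBq, where Icam1 and Vcam1 rose, Selp was at 4.71, 4.83 and 4.81, against 4.93, 5.22 and 4.46 at 0 kBq, near the detection limit. In spleen, where it was highest, the levels at 14 kBq were 7.77, 7.65 and 7.49, against 7.34, 7.11 and 7.02 at 0 kBq. These groups did not overlap, and the difference (log2 change 0.48) was called with set 1 alone, in which 11.4% of all probes were called.

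**Figure D3:**
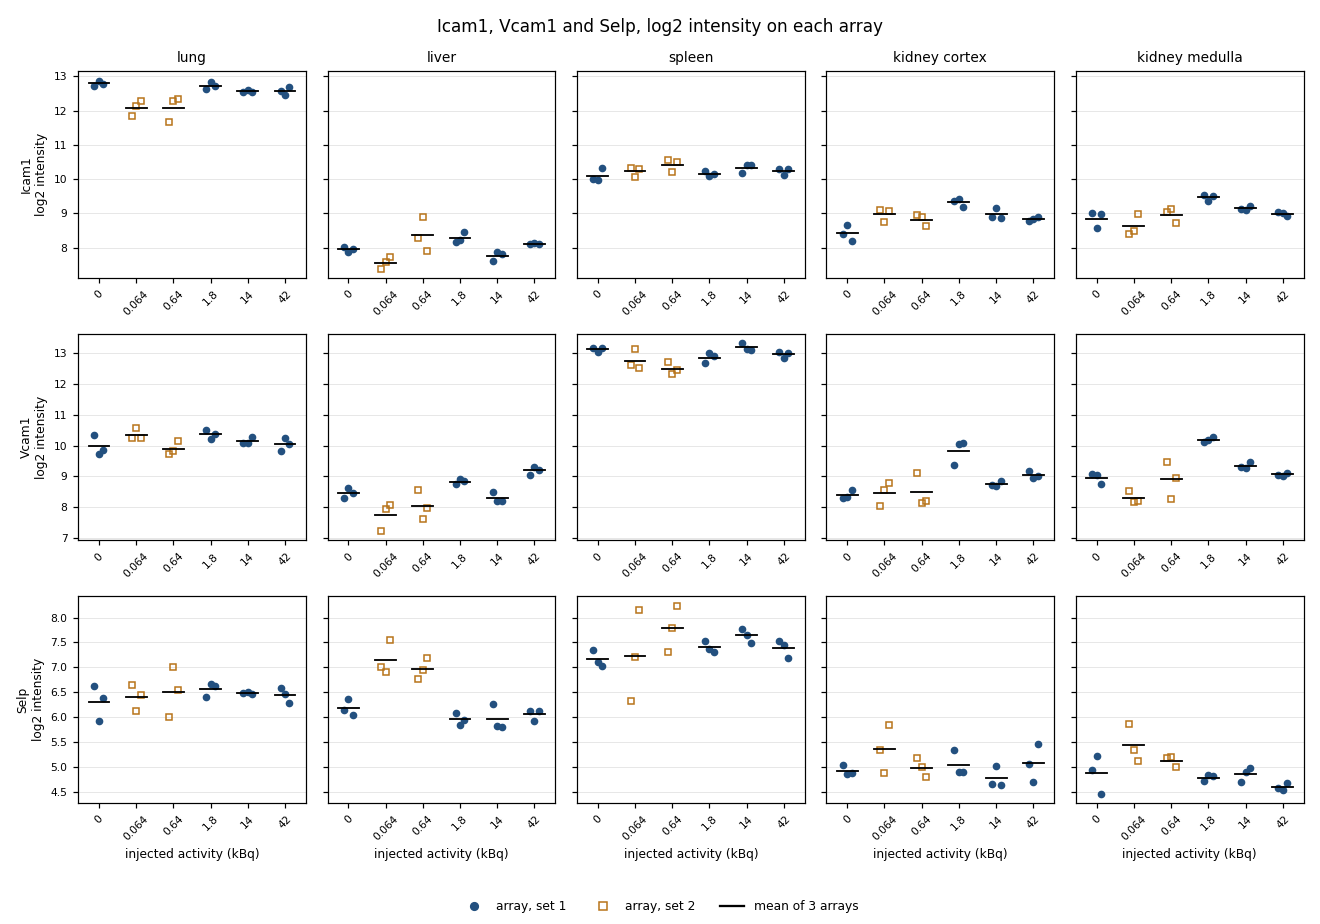
Log2 intensity of Icam1, Vcam1 and Selp on each array, by tissue and injected activity (kBq, from low to high). Filled circles are arrays of set 1, open squares arrays of set 2, and bars the mean of 3 arrays; Icam1 and Vcam1 stand highest at 1.8 kBq in both kidney zones, where Selp is near the detection limit.

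In the joint error the 2 feedback genes were never called in the same comparison: Socs3 was called in the kidney zones, and Nfkbia in liver and kidney medulla. With set 1 alone both were called in liver at 1.8, 14 and 42 kBq (14.7%, 7.94% and 12.5% of all probes called). Both were then also called at 1.8 kBq in cortex (9.02%) and medulla (33.4%). Socs3, the inhibitor of STAT3 signalling, was at 8.38, 8.54 and 8.49 in kidney medulla at 1.8 kBq, against 6.81, 6.85 and 6.84 at 0 kBq. The rise was 3.11-fold (log2 change 1.64, SE 0.18, adjusted p = 3.7e-07) with tight and separate groups, and at 42 kBq the level lay 3.31-fold below that at 1.8 kBq (log2 change -1.73, adjusted p = 1.03e-06). In the deposited value table these changes were 0.96 and -1, and without background correction the second was -1.14. In cortex Socs3 was at 7.51, 7.22 and 7.41 at 1.8 kBq, against 6.47, 6.34 and 6.56 at 0 kBq. It was 1.9-fold higher (log2 change 0.92, SE 0.21, adjusted p = 0.0255), and the call was lost in each of the 6 omissions of an array (adjusted p up to 0.115) with the log2 change between 0.86 and 1. It was 0.43 in the deposited value table and 0.5 without background correction.

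In liver Socs3 took opposite signs by activity. Its levels were 8.67, 8.58 and 8.47 at 1.8 kBq, then 7.56, 7.63 and 7.62 at 14 kBq, then 7.81, 7.72 and 7.51 at 42 kBq, against 8.2, 8.02 and 8.15 at 0 kBq. No group overlapped the controls. The log2 changes of 0.45, -0.52 and -0.44 were not called in the joint error, in which the set 2 livers ranged from 6.83 to 8.81, and all 3 were called with set 1 alone. In spleen Socs3 was at 8.75, 8.99 and 8.86 at 42 kBq, against 8.29, 8.34 and 8.33 at 0 kBq. That difference of 0.55 was called with set 1 alone, where 1.79% of all probes were called.

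Nfkbia, the inhibitor of NF-kB, was called most often, in 5 of 20 comparisons, and mostly in liver. In liver it stood at 8.21, 8.18 and 8.27 in the 1.8 kBq group, 8.29, 8.39 and 8.4 in the 14 kBq group, and 8.01, 8.28 and 8.26 in the 42 kBq group, against 7.66, 7.66 and 7.54 at 0 kBq. All 3 injected groups lay above the controls without overlap. The rises were 1.52-fold (adjusted p = 0.00677), 1.67-fold (adjusted p = 0.00201) and 1.48-fold (adjusted p = 0.00936). At 0.64 kBq the liver levels were 8.53, 8.53 and 8.27, against 7.97, 8.08 and 7.94 at 0.064 kBq, a 1.36-fold rise (adjusted p = 0.0364). Scaling each array to a common median ended all 4 of these calls (log2 changes 0.27 to 0.81), and under it the median change of all probes in liver at 1.8 kBq was -0.22, against -0.02 with quantile normalisation. At 1.8 kBq the Nfkbia change was then 0.27. The 42 kBq call was lost without replicate 2 or 3 at 42 kBq or replicate 3 at 0 kBq, and the 0.64 kBq call in 5 of 6 omissions with set 2 alone and without a filter on dim probes.

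In kidney medulla Nfkbia went the other way. It was at 7.91, 7.77 and 7.79 at 42 kBq, against 8.63, 8.56 and 8.31 at 0 kBq. It fell by 0.68 on the log2 scale (SE 0.13, adjusted p = 0.00283), a call kept under all alternatives and omissions run. At 1.8 kBq the medulla levels were 8.22, 8.01 and 8.27, against the same controls, a log2 change of -0.33 with an adjusted p of 0.0594, called with set 1 alone (-0.33), with the replicate block (-0.33), under median scaling (-0.5) and without replicate 3 at 0 kBq (-0.43). In cortex the sign was positive: 8.11, 8.48 and 8.13 at 1.8 kBq, against 7.15, 7.34 and 7.69 at 0 kBq (log2 change 0.85, adjusted p = 0.0725, called with set 1 alone and under median scaling, and 0.51 in the deposited value table). The kidney zones thus had Nfkbia changes of opposite sign at 1.8 kBq, not called in the joint error and both called with set 1 alone, at the activity at which Cxcl1, Icam1, Vcam1 and Socs3 rose in both.

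**Figure D4:**
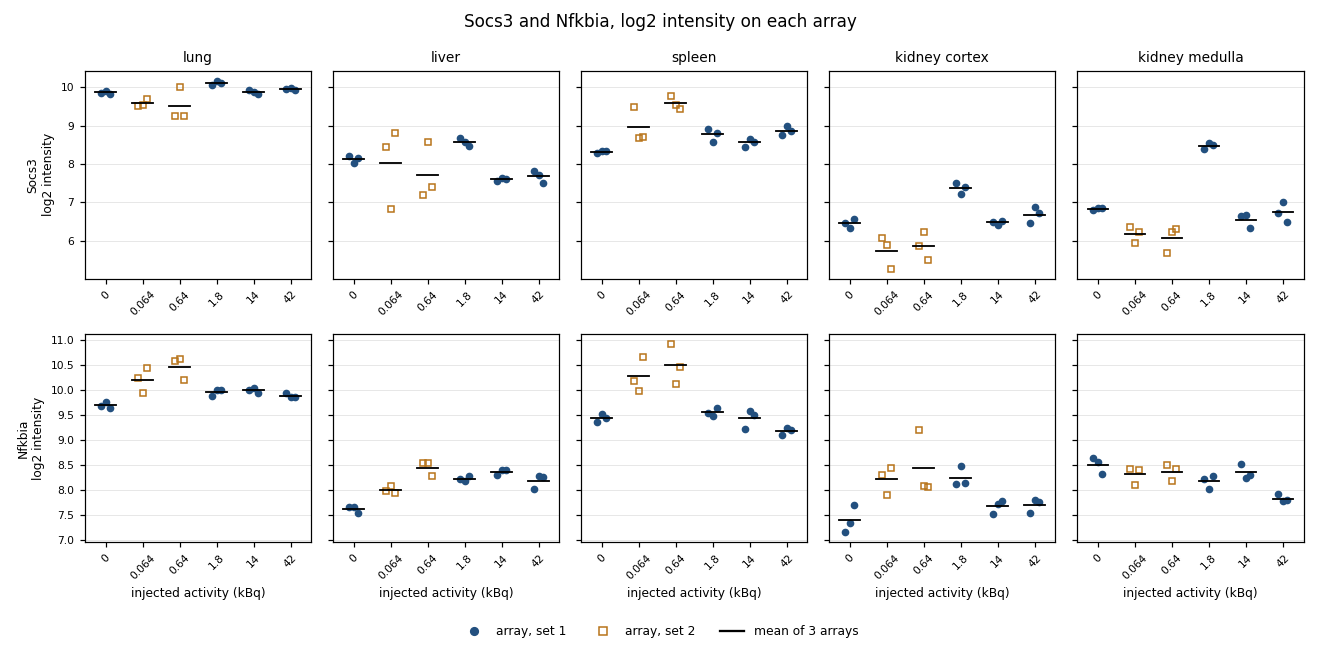
Log2 intensity of Socs3 and Nfkbia on each array, by tissue and injected activity (kBq, from low to high). Filled circles are arrays of set 1, open squares arrays of set 2, and bars the mean of 3 arrays; Socs3 peaks at 1.8 kBq in both kidney zones, and Nfkbia lies above the 0 kBq arrays at each activity in liver and lowest at 42 kBq in kidney medulla.

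An interaction term over the 90 arrays, normalised together, tested whether the change depended on the tissue. The changes printed beside its p-values are those of the fits within each tissue. At 1.8 kBq the change differed among the 5 tissues for 6 of the 10 genes, Cxcl1, Il1b, Icam1, Vcam1, Socs3 and Nfkbia, where 16.2% of 19538 probes did so. The count was 5 in the deposited value table, under median scaling and in some omissions of an array. For Vcam1 the changes were 1.44 in cortex, 1.23 in medulla, 0.4 in lung, 0.38 in liver and -0.27 in spleen (adjusted p = 2.63e-05). For Cxcl1 they were 3.41, 2.85, 0.22, 2.32 and 0.49 in the same order (adjusted p = 0.000201). At 14 kBq only Icam1 differed among tissues (adjusted p = 0.0341; 3.36% of probes), and at 42 kBq only Nfkbia (adjusted p = 0.00133; 4.4%), with changes of -0.68 in medulla, -0.26 in spleen, 0.2 in lung, 0.3 in cortex and 0.56 in liver.

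The tissues also differed before any activity was given. On the 0 kBq arrays, normalised over all 90 arrays, the level of 8 of the 10 genes differed among tissues (76.9% of all probes did), the exceptions being Cxcl2 and Il6. Cxcl1 was at 9.53 ± 0.02 in liver, 7.62 ± 0.25 in lung, 6.47 ± 0.17 in medulla, 5.91 ± 0.23 in spleen and 5.48 ± 0.08 in cortex (SD, n = 3 each). In the fit of all 90 arrays spleen was not called different from either kidney zone, nor the zones from each other (SE 0.46 each). That error includes the scattered set 2 arrays, and none of these groups overlapped. The arrays were at 6.66, 6.36 and 6.4 in medulla, 6.05, 5.65 and 6.03 in spleen, and 5.57, 5.47 and 5.41 in cortex. Tissues said below not to differ are likewise pairs not called in this fit. Icam1 was at 12.87 ± 0.09 in lung, 10.29 ± 0.22 in spleen, and 8.68 ± 0.24 in medulla, 8.48 ± 0.06 in liver and 8.33 ± 0.24 in cortex, and the last 3 did not differ from one another.

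Vcam1 was highest in spleen, at 13.38 ± 0.05, followed by lung at 9.72 ± 0.35, liver at 8.94 ± 0.14, medulla at 8.79 ± 0.19 and cortex at 8.3 ± 0.13. Liver and medulla did not differ in Vcam1, nor did medulla and cortex. Il1b was at 9.89 ± 0.07 in spleen and 9.57 ± 0.05 in lung, which did not differ, at 7.72 ± 0.1 in liver, and at 6.34 ± 0.25 in medulla and 6.27 ± 0.43 in cortex, which did not differ. Socs3 ran from 9.6 ± 0.05 in lung over 8.64 ± 0.08 in liver and 8.38 ± 0.02 in spleen, a pair that did not differ, to 6.65 ± 0.02 in medulla and 6.43 ± 0.11 in cortex, another such pair. Nfkbia was at 9.56 ± 0.08 in spleen and 9.41 ± 0.07 in lung, at 8.32 ± 0.17 in medulla and 8.18 ± 0.06 in liver, and at 7.33 ± 0.26 in cortex. Pairs of tissues differed in 18.9% to 56.2% of all probes. Within the first 2 of these Nfkbia pairs the tissues did not differ, and cortex was below medulla (log2 difference -0.99, adjusted p = 4.84e-06).

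Selp was at 7.18 ± 0.16 in spleen and 6.8 ± 0.18 in liver, which did not differ, at 5.92 ± 0.33 in lung, and at 4.93 ± 0.1 in cortex and 4.82 ± 0.35 in medulla. Tnf was at 6.6 ± 0.29 in spleen, above each of the other tissues, which lay between 4.75 and 5.27. Kidney cortex had the lowest control mean of Cxcl1, Il1b, Icam1, Vcam1, Socs3 and Nfkbia, and of these only Nfkbia was called between cortex and medulla.

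**Figure D5:**
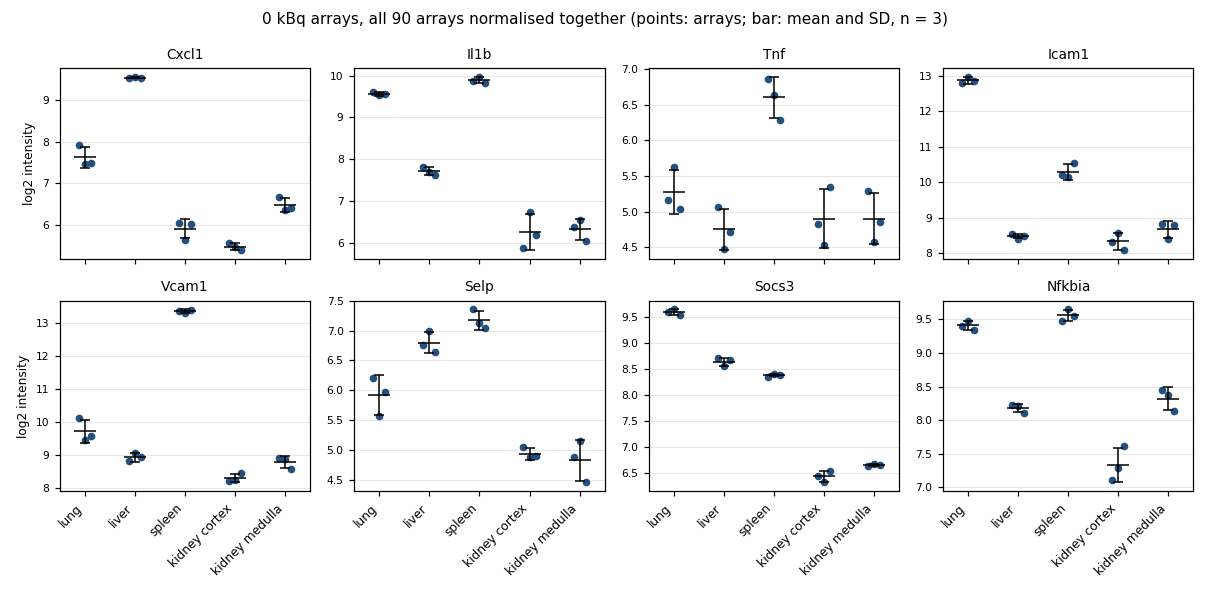
Log2 intensity of 8 of the genes on the 0 kBq arrays of each tissue, with all 90 arrays normalised together. Points are arrays and bars the mean and SD of 3 arrays; Cxcl1 is highest in liver, Icam1 and Socs3 in lung, and Vcam1, Tnf and Selp in spleen.

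The promoters of the genes were read for the letters that the factors above bind, since several members rose together. RefSeq (GRCm38.p6) gave the 250 bases before the start of 9 of the 10 genes, all but Vcam1. A motif of GGG, any 3 bases and TTCC, a form of the NF-kB site, was searched on both strands, and the palindromic motif TTCNNNGAA, a form of the STAT site, was searched once. The first occurred in 4 of the 9 windows (Cxcl1, Cxcl2, Il6 and Nfkbia) and in 4.65% of 32851 windows of the same length, and the second in 2 of 9 (Icam1 and Socs3) and in 7.02% of all. A match is a description of the letters and not a site in use. Of the genes called higher in both kidney zones at 1.8 kBq, only Cxcl1 held the first motif, and Vcam1 had no window. Cxcl2 and Il6, which also held it, were not tested in any tissue. The windows of Cxcl1, the gene with the largest rise, Icam1, which rose beside it in both kidney zones, and Nfkbia, which went the other way in medulla, are given 5′ to 3′ with matches in capitals. They lie at chr5:90890995-90891244 on the plus strand, chr9:21015690-21015939 on the plus strand and chr12:55492648-55492897 on the minus strand.
Cxcl1: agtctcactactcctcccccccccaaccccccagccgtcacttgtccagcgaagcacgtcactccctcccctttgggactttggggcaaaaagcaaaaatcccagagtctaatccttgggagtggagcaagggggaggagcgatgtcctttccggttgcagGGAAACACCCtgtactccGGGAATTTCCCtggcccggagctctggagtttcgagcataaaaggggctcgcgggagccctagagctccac
Icam1: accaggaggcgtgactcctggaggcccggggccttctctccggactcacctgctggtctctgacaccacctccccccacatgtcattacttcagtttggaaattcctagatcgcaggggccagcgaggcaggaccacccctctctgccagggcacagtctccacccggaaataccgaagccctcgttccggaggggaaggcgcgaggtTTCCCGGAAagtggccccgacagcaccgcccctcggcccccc
Nfkbia: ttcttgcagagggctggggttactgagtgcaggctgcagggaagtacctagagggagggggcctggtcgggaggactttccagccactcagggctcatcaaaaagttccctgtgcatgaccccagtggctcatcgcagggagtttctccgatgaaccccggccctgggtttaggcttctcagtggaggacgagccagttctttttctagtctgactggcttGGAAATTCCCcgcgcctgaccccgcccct
The capitals in Cxcl1 hold 3 matches of the NF-kB motif, of which 2 overlap on opposite strands, those in Icam1 1 match of the STAT motif, and those in Nfkbia 1 match of the NF-kB motif. The single STAT motif of Socs3 read TTCTTAGAA and ended 146 bases before its start.

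The wider pathways were described by counts over 5 lists of other genes. In kidney medulla at 1.8 kBq, 9 of 20 tested genes of NF-kB signalling and feedback rose and 1 fell, with a list median of 0.48 against 0.05 for all genes. In that comparison 13.4% of all probes rose and 13.3% fell. They included Cd14, the co-receptor for bacterial lipopolysaccharide, at 2.85-fold (adjusted p = 2.09e-05), and Nfkbiz, an inducible NF-kB cofactor, at 2.17-fold (adjusted p = 1.37e-05). Of the STAT3 and acute phase targets 9 of 17 rose and none fell, with a median of 0.75. Lcn2, the iron-binding lipocalin, rose 9.69-fold (adjusted p = 6.65e-12), Serpina3n, a protease inhibitor, 4.24-fold (adjusted p = 1.87e-07), and Timp1, an inhibitor of metalloproteinases, 3.19-fold (adjusted p = 1.77e-05). Of the listed neutrophil chemokines, growth factors and receptors, which include some monocyte chemokines, 3 of 9 rose, with a median of 0.06, close to that of all genes. They included the monocyte chemokines Ccl2 and Ccl7, which were detected on all 3 arrays at 1.8 kBq and on none at 0 kBq.

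In kidney cortex at 1.8 kBq 5 of 19 NF-kB genes rose and none fell (median 0.22 against -0.02). Of all probes there 1.5% rose and 0.498% fell. Cd14 was 6.08-fold higher (adjusted p = 0.00099) and Tlr2, a receptor for bacterial lipoproteins, 2.88-fold (adjusted p = 0.0315). Of the STAT3 and acute phase targets 5 of 20 rose, with Lcn2 at 12.1-fold (adjusted p = 4.37e-07), Fga, a fibrinogen chain, at 7.74-fold (adjusted p = 0.0215) and Timp1 at 4.66-fold (adjusted p = 4e-06). Listed hepatocyte genes rose in this comparison too (given below), and their part in these rises was not tested. The Tnf receptor Tnfrsf1a was the 1 called gene of the 12 tested in the list of IL-1, TNF and IL-6 ligands and receptors, at 2.45-fold (adjusted p = 0.00508).

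In liver at 1.8 kBq 3 of 14 genes of that list rose, beside 1.97% of all probes. They were Il1a, the other agonist of the IL-1 receptor, at 2.29-fold (adjusted p = 0.00634), the receptor subunit Il6ra at 1.76-fold (adjusted p = 0.022) and Il18 at 1.57-fold (adjusted p = 0.0463). None of the 17 tested NF-kB genes was called there, with a median of 0.01 against -0.03 for all genes. Of the 23 tested STAT3 and acute phase targets 4 rose and 1 fell, beside 1.97% and 1.95% of all probes. None of the other leukocyte adhesion genes was called at 1.8 kBq in liver, spleen, cortex or medulla. Of all probes 3.92%, 2.8%, 2% and 26.6% were called in these tissues, in either direction. In lung 1 of 15 adhesion genes rose, beside 0.193% of all probes. It was Glycam1, a ligand of L-selectin on lymph node vessels (adjusted p = 1.97e-10), detected on all 3 arrays at 1.8 kBq and on none at 0 kBq. In lung 1 of 22 NF-kB genes rose as well, Tnfaip3, the deubiquitinase A20, at 1.59-fold (adjusted p = 0.033). In spleen 5 of 21 STAT3 and acute phase targets rose, beside 1.44% of all probes. Among them was Saa3, serum amyloid A, at 2.52-fold (adjusted p = 0.0192). Between 0.64 and 0.064 kBq in liver, where Icam1 and Nfkbia were called, 7 of 23 STAT3 and acute phase targets rose, beside 2.06% of all probes. Lcn2 was at 4.62-fold (adjusted p = 0.00232). With set 2 fitted alone 0% of all probes were called in that comparison, so these list calls were lost too.

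Markers of other cells were read beside these changes, and their part in the results was not tested. For neutrophils, 12 granule genes were listed. In medulla at 1.8 kBq 2 of the 6 tested rose, where 13.4% of all probes did, with summed log2 intensities of 9.33 to 9.39, against 8.92 to 9 at 0 kBq, and Cd177, Elane, Mmp8, Ngp and Retnlg were not detected on any of these arrays. In cortex none of 7 was called, the sums were 8.85 to 9.31 at 1.8 kBq, against 9.58 to 9.65 at 0 kBq, and Cd177, Mmp8 and Ngp were not detected. In liver 2 of 11 rose at 1.8 kBq, beside 1.97% of all probes (sums 12.07 to 12.27, against 11.74 to 11.78 at 0 kBq), and 4 of 11 at 42 kBq, beside 1.76% (12.77 to 12.79), with Mmp8 not detected.

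The 9 listed endothelial genes, whose cells carry Icam1, Vcam1 and Selp, gave sums of 11.9 to 12.25 at 1.8 kBq in cortex, against 12.02 to 12.14 at 0 kBq, with none called and Vwf not detected. In medulla the sums were 12.83 to 12.97 at 1.8 kBq, against 12.77 to 12.84 at 0 kBq, with 1 of 9 lower, where 13.3% of all probes fell. The monocyte and macrophage list in medulla was at 11.36 to 11.48 at 1.8 kBq, against 11.76 to 11.83 at 0 kBq, with 1 of 6 lower (again beside 13.3%) and Ccr2 and Clec4f not detected. In cortex the same list was at 10.39 to 10.69 at 1.8 kBq, against 10.03 to 10.24 at 0 kBq, with none of 6 called.

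Some lists moved with single tissues. At 1.8 kBq 13.4% of all probes rose in medulla, 1.5% in cortex, 1.97% in liver and 1.44% in spleen, and 0.181% fell in lung. In medulla at 1.8 kBq 8 of 9 tested immediate early genes rose (sums 12.81 to 12.86, against 12.24 to 12.34 at 0 kBq, with Fosb, Ier2 and Nr4a1 not detected), as did 2 of 3 fat cell genes (8.74 to 9.02, against 7.11 to 7.31, with Plin1 and Retn not detected). In cortex at 1.8 kBq 4 of 5 tested hepatocyte genes rose (12.99 to 13.18, against 12.15 to 12.27) and 3 of 6 genes of tubular injury, a list that holds Lcn2 (12.96 to 13.1, against 12.25 to 12.37). In liver at 1.8 kBq 3 of 7 glucocorticoid targets rose (14.71 to 14.75, against 12.69 to 12.75). In spleen, where none of the set was called at 1.8 kBq, 8 of 8 exocrine pancreas genes rose (17.27 to 17.3, against 9.35 to 9.5). In lung at 1.8 kBq 4 of 7 cardiac muscle genes fell (10.9 to 10.98, against 11.88 to 11.98, with Nppa not detected).

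The likeness of other genes was taken over the 60 arrays of set 1, as Pearson's correlation of deviations from the tissue mean. It is a description, because arrays of a group share their treatment. For Nfkbia the closest genes were Srsf5 (r = 0.73), Rbm3 (0.69) and Btg1 (0.68). Closest to Cxcl1 were Lcn2 (r = 0.91), Cd14 (0.88) and Litaf (0.87), and closest to Il1b Fos (0.7), Fcgr4 (0.69) and Cd22 (0.68). Within the set itself Cxcl1 ran with Vcam1 (r = 0.86), Socs3 (0.77) and Icam1 (0.74), less with Il1b (0.48) and Nfkbia (0.41), and hardly with Tnf (0.11) or Selp (0.06).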

How the data were processed

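Total RNA of 5 mouse tissues was hybridised to single-colour Illumina bead arrays (90 arrays, 30 groups of 3). The authors deposited an unnormalised table, with an intensity per probe and array on a linear scale and, beside it, a detection p-value, per the file headers. The deposited value table held the authors' processed intensity, and its normalisation is not given in the sources used here; it served as an alternative. Of 25697 probes, 23978 had 1 gene symbol, 1719 none and 0 several in the platform annotation, and 23962 were updated through Entrez identifiers. Each array's column was matched to a sample by its title, and 0 value columns were left without one.

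Background was corrected by normal-exponential convolution in limma 3.58.1 (R 4.3.3), using the detection p-values and an offset of 16, and log2 values were quantile normalised within each tissue. Probes with a detection p under 0.05 on at least 3 arrays were tested with 1 mean per group over 18 arrays, leaving 12 residual degrees of freedom, with variances moderated along a trend with intensity, two-sided, with Benjamini-Hochberg adjustment over all probes of the tissue. Differences among tissues came from 1 fit of 90 arrays (19538 probes). All adjusted p-values are from limma. The number of arrays limits the precision. The fits were tested on simulated data.

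The members and the gene lists were chosen with earlier results of these data known. All 10 members are named whatever their values, each by its single probe. From each list up to 4 called genes with the largest change were eligible, and 3 genes per member for likeness. The alternatives were each array set fitted alone, the deposited value table, no background correction, an offset of 50, no filter, median scaling, the replicate number as a block, and each array left out. Replicate numbers came from the sample titles. Every correlation of same-numbered arrays was above 0.1 only in set 2 of lung (0.15 to 0.25) and kidney cortex (0.21 to 0.41). All were positive too in set 1 of liver (0.02 to 0.22), spleen (0.03 to 0.3), cortex (0.06 to 0.32) and medulla (0.07 to 0.25). The same held in set 2 of spleen and medulla (0.06 to 0.21 each), unlike set 1 of lung and set 2 of liver. The main fits held no replicate term, and the block was an alternative run in each tissue. It added calls for Icam1 in cortex at 42 against 1.8 kBq and Nfkbia in medulla at 1.8 against 0 kBq.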

Additional observations from a re-analysis of the deposited data

Results flagged for a closer look

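The change at 1.8 kBq against 0 kBq differed among the 5 tissues in the interaction test for 6 genes: Vcam1 (adjusted p = 2.63e-05), Cxcl1 (0.000201), Icam1 (0.00148), Nfkbia (0.00297), Socs3 (0.00647) and Il1b (0.0372). Vcam1, Cxcl1 and Icam1 had their largest changes in kidney cortex, at 1.44, 3.41 and 0.92 on the log2 scale, and Socs3 in kidney medulla, at 1.64. Il1b had its largest change in liver, at 1.2, and -0.05 in kidney cortex. Nfkbia was at 0.85 in kidney cortex and -0.33 in kidney medulla. At 14 kBq the change of Icam1 differed among tissues (adjusted p = 0.0341), with 0.55 in kidney cortex and -0.22 in lung. At 42 kBq that of Nfkbia differed (adjusted p = 0.00133), with 0.56 in liver and -0.68 in kidney medulla. These tests share the 0 kBq arrays, and groups of 3 arrays were too small to look for single outlying arrays.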

How the results depend on the processing

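No called change of the 10 genes turned its direction under any alternative run. Counts are of the 10 genes called. Over the 20 comparisons against 0 or 0.064 kBq the total was 20, against 37 with each array set fitted alone, 22 in the deposited value table, without background correction and with an offset of 50, 17 without a filter and under median scaling, and 21 with the replicate block. At 1.8 against 0 kBq, sets alone gave 1 in lung, 6 in liver and 2 in spleen, where the count was 0, 3 and 0. At 14 against 0 kBq they gave 2 in kidney cortex, 1 in kidney medulla, 3 in liver, 1 in lung and 2 in spleen, where it was 0, 0, 1, 0 and 1. At 42 against 0 kBq they gave 4 in liver, 1 in spleen and 2 in cortex, where it was 2, 0 and 0, and at 42 against 1.8 kBq 4 in liver and 5 in cortex, where it was 1 and 0. Between 0.64 and 0.064 kBq they gave 0 in liver and 0 in spleen, where it was 2 and 1. For a change that differed among tissues at 1.8 kBq the count of 6 became 5 in the deposited value table and under median scaling, and 5 to 6 with an array left out. Sets alone gave 5 at 14 kBq and 5 at 42 kBq, where it was 1 and 1; at 14 kBq the deposited value table, no background correction and an offset of 50 each gave 2, and at 42 kBq no background correction gave 2. In lung at 1.8 kBq the deposited table, no background correction, an offset of 50 and median scaling each gave 1. In cortex at 42 against 1.8 kBq the deposited table gave 3, no background correction 3, an offset of 50 gave 2, median scaling 1 and the replicate block 1. Without a filter on dim probes the count was 1 in liver at 0.64 kBq and 0 in spleen at 14 kBq. Median scaling gave, in liver, 1 at 1.8 kBq, 0 at 14 kBq, 1 at 42 kBq, 0 at 0.64 kBq and 0 at 42 against 1.8 kBq, in spleen 0 at 14 kBq, and in medulla 2 at 0.64 kBq and 3 at 42 against 1.8 kBq. It put the median change of all probes at -0.22 in liver at 1.8 kBq, 0.14 in liver at 42 against 1.8 kBq and 0.16 in medulla at 0.64 kBq. The replicate block added Icam1 in cortex at 42 against 1.8 kBq and Nfkbia in medulla at 1.8 kBq (6 genes there, where it was 5), and changed no other call. Leaving out each array in turn gave 0 to 1 in lung at 42 against 1.8 kBq, 1 to 2 in liver at 42 kBq, 0 to 2 in liver at 0.64 kBq, 0 to 0 in liver at 42 against 1.8 kBq, 0 to 0 in spleen at 14 kBq, 0 to 2 in spleen at 0.64 kBq, 2 to 3 in cortex at 1.8 kBq, 0 to 1 in cortex at 42 against 1.8 kBq, 0 to 1 in medulla at 0.64 kBq, 3 to 4 in medulla at 42 against 1.8 kBq, and 0 to 1 for a change that differed among tissues at 14 kBq. Fits of a set alone or with an array left out held fewer arrays, and the cause of the changed counts was not tested. Signals near the detection limit left Cxcl2 and Il6 untested and Tnf untested in liver and kidney cortex.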
